A study of Homo sapiens with 6 samples.

Results

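Germline and meiosis genes act in germ cells and are held silent in most somatic cells; 33 of them were followed here in BE(2)-C, an established human neuroblastoma cell line with amplified MYCN. The members are a list of germline genes that somatic cells are not expected to express. Each was read from the array row that names it alone in the probe annotation, taking the row with the highest mean where a gene had several, and all 33 were found among 18404 genes. The study compared 3 arrays of cells given 5 µM BIX01294 for 24 hours with 3 arrays of cells given the solvent, 0.05% DMSO, for the same 24 hours. BIX01294 inhibits EHMT2 and EHMT1, also called G9a and GLP, the enzymes that place mono- and dimethyl marks on lysine 9 of histone H3. Total RNA was measured on Affymetrix gene arrays, and the cells carry no other allele or agent that the labels name. The 3 samples of each treatment are described as independent, but nothing says that they were separate cultures, so p-values measure the spread between these samples.

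In germ cells these genes build the machinery of meiosis: cohesin rings and axial proteins organise the chromosomes, the synaptonemal complex joins homologues, and a set of recombination enzymes makes and repairs DNA breaks. A second branch makes piRNAs, small RNAs that guide PIWI proteins to silence transposons. In somatic cells many germline genes are kept off by DNA methylation, by histone H3 lysine 9 methylation and by a Polycomb complex that holds E2F6, MGA, MAX, L3MBTL2 and PCGF6, whose E2F6 and MGA-MAX parts bind an E2F motif and an E-box.

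The label of silent genes held for most members and not for all. Of the 33 members, 29 lay below the lower quartile of all genes on each of the 6 arrays, and SYCE2 did so on 4. TDRD1, REC8 and TDRKH instead lay above the median of all genes on each of the 6 arrays. The member median was 4.46, 4.57 and 4.40 on the log2 scale on the BIX01294 arrays, against 4.44, 4.40 and 4.58 on the DMSO arrays, while the lower quartile of all genes ran from 5.91 to 6.06 over the arrays. The germline level as a whole thus stood in the same range in both treatments. The files hold no detection calls, so a weak signal cannot be told from background, and levels of different genes depend on their probes. They are therefore placed only by quartile.

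**Figure D1:**
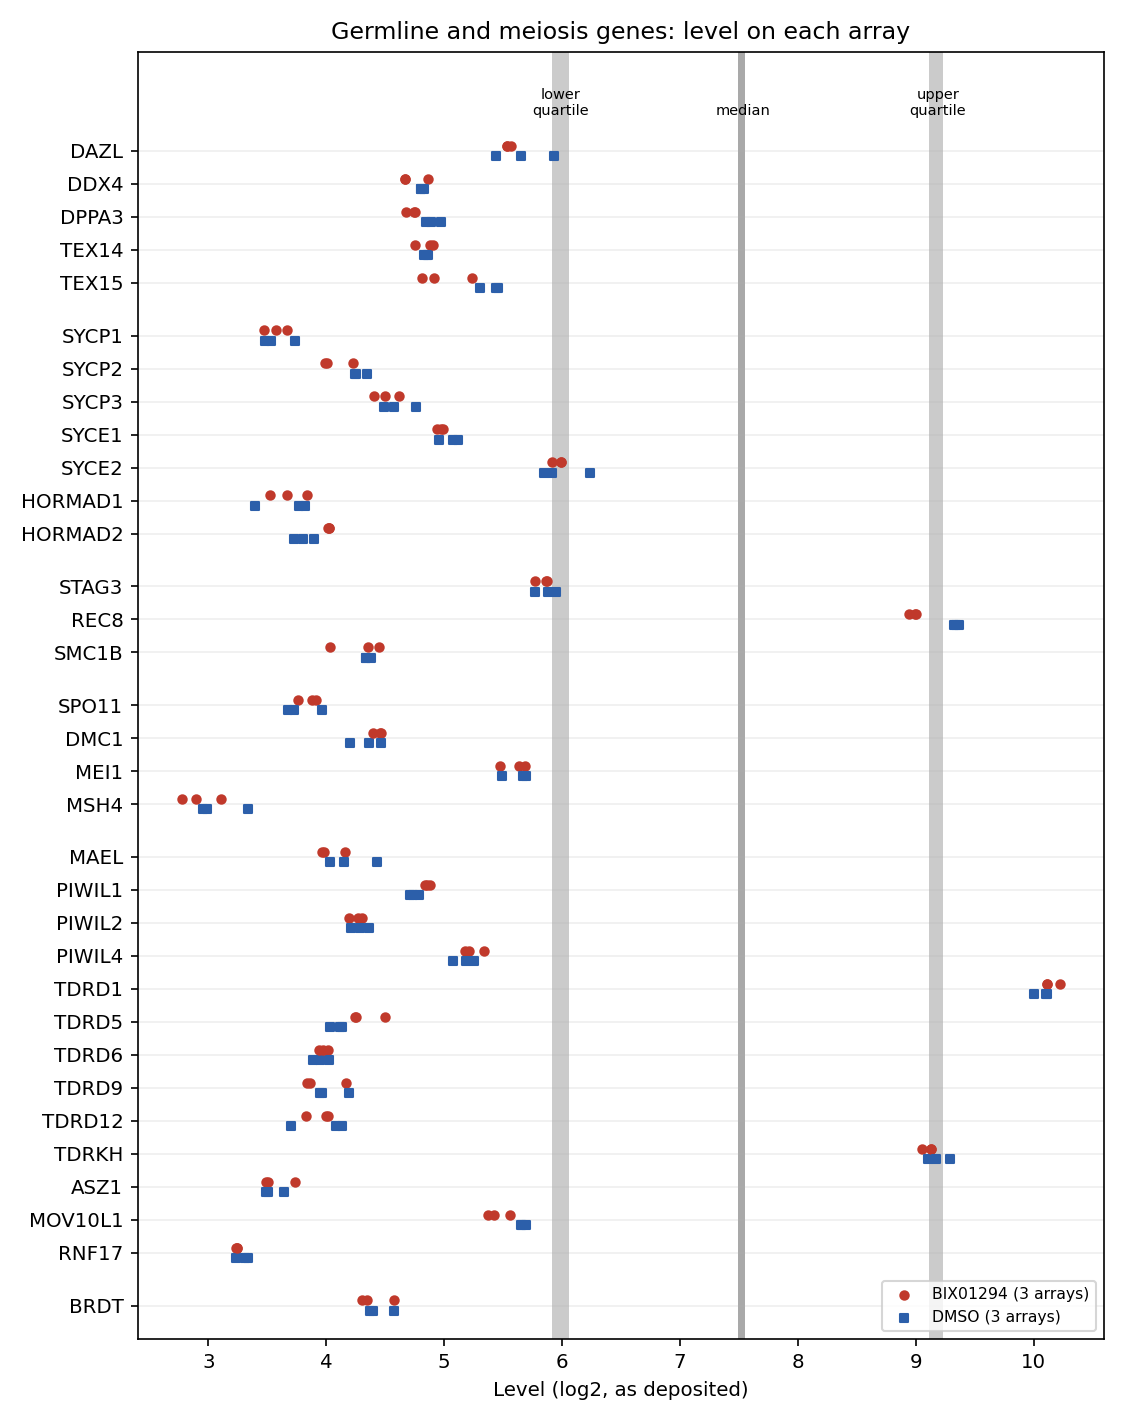
Level (log2, as deposited) of each of the 33 members on the 3 BIX01294 arrays (circles) and the 3 DMSO arrays (squares), grouped by role; grey bands span the lower quartile, the median and the upper quartile of all genes over the 6 arrays. TDRD1, REC8 and TDRKH lie right of the median and the other 30 lie around or left of the lower quartile.

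Arrays correlated with the other arrays of their own treatment at 0.997 to 0.998 and with those of the other treatment at 0.991 to 0.992. All 9 measured neuroblastoma markers lay above the upper quartile on every array, among them MYCN. The summed signal of these 9 was 30919 to 31881 with BIX01294 and 32562 to 33304 with DMSO on the linear scale. Of them, ISL1 passed as higher with BIX01294 (limma adjusted p under 0.05 over all genes) and PHOX2A, GATA3 and CHGA as lower. Of 9 mesenchymal or Schwann-like markers, VIM, CD44 and S100B passed as higher and TWIST1 as lower. In each list 44.4% were called, against 23.6% of all genes and 37.3% of genes with a mean above the median. The median log2 change of the mesenchymal list was 0.01, and FN1 and PRRX1 lay below the lower quartile on every array. Its summed signal was 4687 to 4949 with BIX01294 and 3957 to 4007 with DMSO. Most of that sum lies in VIM, which averaged 11.22 with BIX01294 and 10.40 with DMSO, and TWIST1, which averaged 10.51 with BIX01294 and 10.77 with DMSO (log2). The part of these markers in the members' values was not tested.

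Promoters are shown for the called members that the RefSeq promoter table holds (REC8, MOV10L1 and HORMAD2), for TDRD1, which had a high signal, and for DAZL, 1 of whose 2 annotated promoters carries both motifs searched; that one is shown, and the other holds neither. Of the 33 members, 28 matched the table, with 36 promoters in all. Each window below is the 250 bases before the annotated start in GRCh38.p14, written 5′ to 3′ on the gene's strand, and capitals mark the E-box CACGTG, which reads the same on both strands, or the E2F motif TCCCGC, which was searched on both strands (GCGGGA on the other). The windows are REC8 at chr14:24171830-24172079 (+), MOV10L1 at chr22:50089756-50090005 (+), HORMAD2 at chr22:30080214-30080463 (+), TDRD1 at chr10:114179037-114179286 (+) and DAZL at chr3:16604791-16605040 (-).
REC8: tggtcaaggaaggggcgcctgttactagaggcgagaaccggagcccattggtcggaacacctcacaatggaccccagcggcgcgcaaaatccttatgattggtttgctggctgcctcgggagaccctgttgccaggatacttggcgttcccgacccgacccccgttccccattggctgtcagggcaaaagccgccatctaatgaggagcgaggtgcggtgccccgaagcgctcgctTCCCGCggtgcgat
MOV10L1: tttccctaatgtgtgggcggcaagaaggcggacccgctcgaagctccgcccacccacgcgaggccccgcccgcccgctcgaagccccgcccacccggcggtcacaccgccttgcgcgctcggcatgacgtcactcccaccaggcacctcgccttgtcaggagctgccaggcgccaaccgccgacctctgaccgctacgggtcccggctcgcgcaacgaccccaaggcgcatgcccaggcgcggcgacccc
HORMAD2: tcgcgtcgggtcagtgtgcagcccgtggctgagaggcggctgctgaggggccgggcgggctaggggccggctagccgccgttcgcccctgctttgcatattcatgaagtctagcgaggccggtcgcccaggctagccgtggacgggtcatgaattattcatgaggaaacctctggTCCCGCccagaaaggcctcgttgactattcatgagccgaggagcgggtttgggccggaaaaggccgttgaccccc
TDRD1: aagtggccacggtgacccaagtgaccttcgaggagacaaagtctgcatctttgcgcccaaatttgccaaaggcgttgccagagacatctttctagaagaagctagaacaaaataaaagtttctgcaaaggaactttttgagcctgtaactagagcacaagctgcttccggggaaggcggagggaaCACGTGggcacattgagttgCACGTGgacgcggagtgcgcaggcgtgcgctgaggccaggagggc
DAZL: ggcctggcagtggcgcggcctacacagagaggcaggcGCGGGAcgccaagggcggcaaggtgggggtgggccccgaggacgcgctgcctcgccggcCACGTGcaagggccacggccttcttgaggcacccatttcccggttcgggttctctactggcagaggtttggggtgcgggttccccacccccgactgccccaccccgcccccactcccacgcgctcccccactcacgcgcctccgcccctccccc
The REC8 and HORMAD2 windows each hold 1 E2F motif, TDRD1 holds 2 E-boxes, DAZL holds 1 of each, and MOV10L1 holds neither. Over all 36 member promoters, the E-box was in 10 (27.8%), against 6.3% of the 35116 promoters of the table, and the E2F motif was in 14 (38.9%), against 23.5%. Both motifs were in 3 member promoters, of DAZL, SYCE1 and STAG3, at positions that do not overlap, and 15 held neither. CpG observed over expected had a median of 0.78 in the member promoters and 0.56 in all promoters, and it reached 0.6 in 86.1% of member promoters against 47.5% of all. Member promoters were thus CpG-rich more often, with DDX4 (0 CpGs) and DPPA3 (2 CpGs) at the other end. Both motifs contain a CpG, and their shares in promoters of like CpG content were not counted. Some genes have several starts whose windows share sequence, so these shares are descriptions, and a match is not a binding site.

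The question of the comparison is whether germline genes change after 24 hours of EHMT inhibition. Few did: 4 of the 33 members passed the test, 1 higher and 3 lower with BIX01294, and 29 did not pass. REC8, TEX15 and MOV10L1 fell and HORMAD2 rose. Before adjustment 7 members were under 0.05, and limma's test against a minimum log2 change of 0.5 called 0. The test was limma's moderated fit over all 18404 genes with Benjamini-Hochberg adjustment at 0.05, which called 23.6% of all genes (12.9% higher and 10.7% lower). The members' share of 12.1% was thus below that of all genes; among genes whose mean lay in the lower quartile of all genes, 4.80% were called, and 3 of the 30 members there. The median log2 change of the 33 members was -0.03, against -0.01 over all genes and -0.02 over the lower-quartile genes. With each array centred on its median, the member median was 0.00 (-0.03 as deposited) and the median of all genes was 0.03. The changes ran from -0.41 for TEX15 to 0.24 for TDRD5, with 10 members above 0 and 23 below. Of all genes 8899 lay above 0 and 9505 below, and of the lower-quartile genes 1985 above and 2616 below. Several of the 23 were close to 0, and the split was not tested. No member reached a 2-fold change, while 110 genes of the whole table did.

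**Figure D2:**
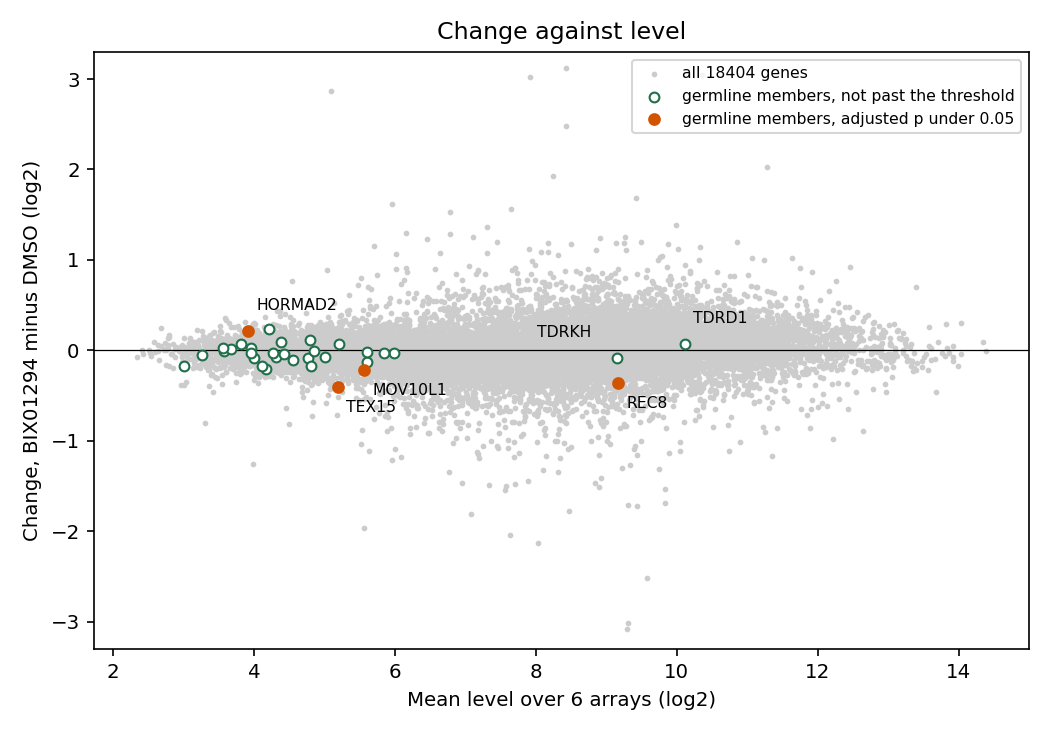
Log2 change, BIX01294 minus DMSO, against the mean log2 level over 6 arrays for all 18404 genes (grey) and the 33 members (filled where limma's adjusted p was under 0.05). The members lie between -0.41 and 0.24, within the cloud of other genes of their level, and 30 of them lie in its dim left part.

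The 95% interval of the change lay within -1 and 1 on the log2 scale for all 33 members, and within -0.5 and 0.5 for all 29 that did not pass. The lowest bound among the 29 was -0.45 for MSH4 and the highest was 0.42 for TDRD5. Of the 29, 27 had a mean in the lower quartile, where a weak signal cannot be told from background. For these genes the intervals bound the change in array signal and need not bound that in RNA. The arrays of the 2 treatments did not overlap for 8 members, and 40.1% of all genes had such a split. Among genes with a mean in the lower quartile, 631 of 4601 had it, and so did 7 of the 30 members there. The 8 were the 4 called members together with DPPA3, SYCP2, PIWIL1 and TDRD5. The median absolute change was 0.08 for the members, 0.11 for all genes and 0.08 for the lower-quartile genes, so the members moved about as far as other dim genes did.

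**Figure D3:**
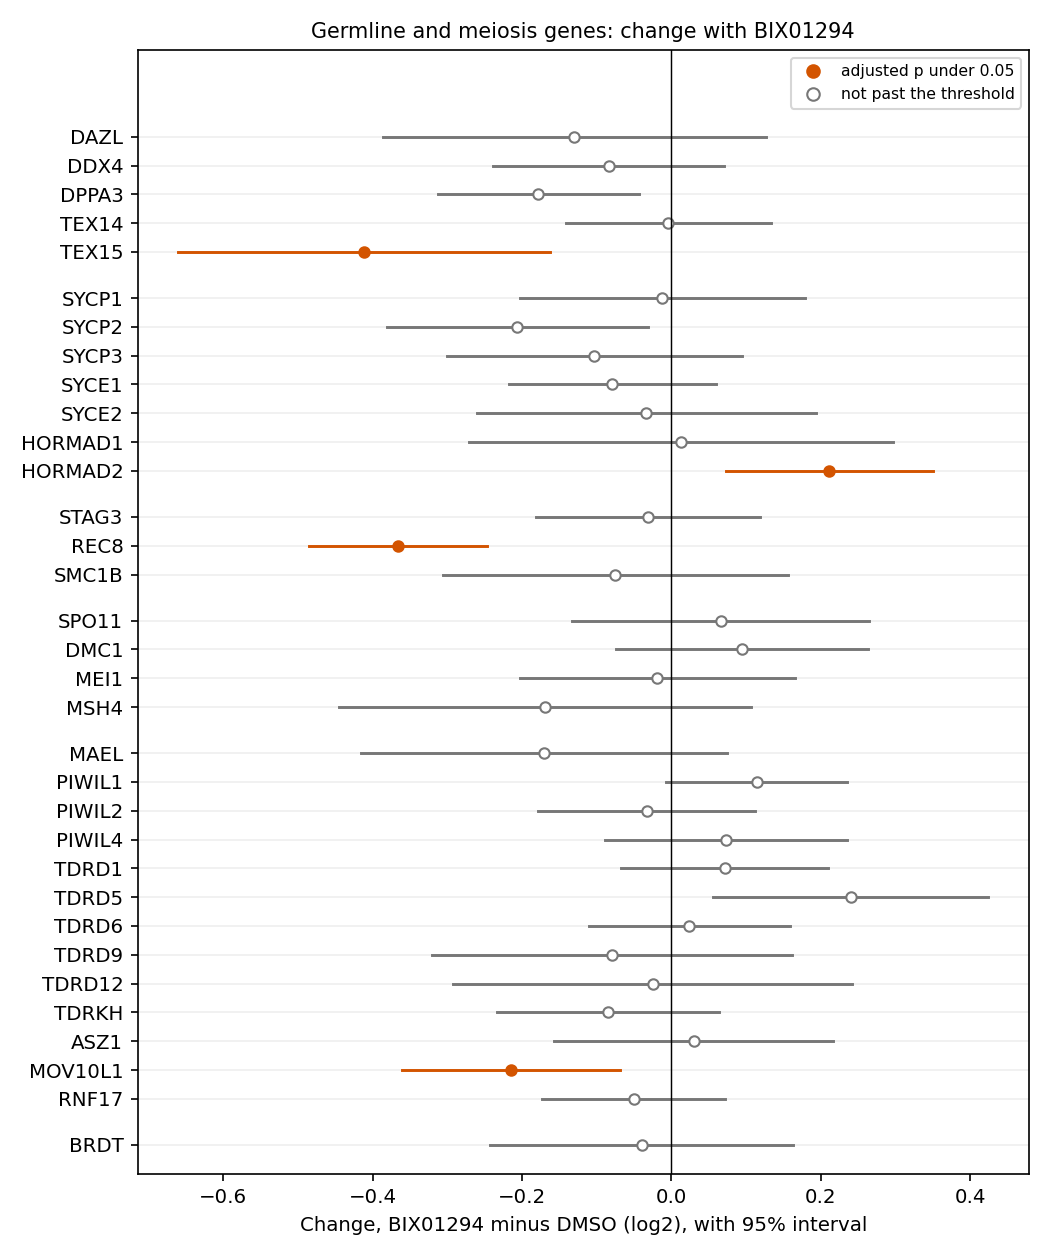
Log2 change, BIX01294 minus DMSO, with its 95% interval from limma for each member, grouped by role; filled points have an adjusted p under 0.05 and open points do not. TEX15, REC8 and MOV10L1 lie left of 0 and HORMAD2 right of it, and the other 29 intervals stay within -0.5 and 0.5.

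Among the meiotic cohesin genes, 1 of 3 fell and 2 did not pass. REC8, the kleisin subunit that holds sister chromatids together in meiosis, read 8.99, 9.00 and 8.94 (log2) with BIX01294, against 9.37, 9.34 and 9.32 with DMSO. All 3 BIX01294 arrays were below all 3 DMSO arrays, and they lay under the upper quartile of all genes where the DMSO arrays lay above it. The means were 8.98 ± 0.03 with BIX01294 and 9.34 ± 0.02 with DMSO (SD, n = 3 each), and REC8 was 1.29-fold lower. Its log2 change was -0.37 (SE 0.052, limma adjusted p = 0.0018). REC8 had the smallest within-group SD of all members (0.028), and leaving out any 1 array kept its change between -0.35 and -0.38, with limma adjusted p between 0.00541 and 0.0112. In RNA from a bulk culture, fewer cells that express a gene and less of its RNA per cell cannot be told apart. STAG3, a cohesin subunit of the meiotic axis, changed by -0.03, and SMC1B, the meiotic SMC subunit, by -0.08. Neither passed (limma adjusted p = 0.783 and 0.66), and both were dim.

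The somatic counterparts of these cohesins lay above the median on every array. STAG1, a subunit of mitotic cohesin, read 8.48, 8.44 and 8.50 with BIX01294, against 7.97, 8.00 and 7.77 with DMSO, a log2 change of 0.56 (SE 0.072, limma adjusted p = 0.0012). It was higher on all 3 BIX01294 arrays. RAD21, the somatic kleisin, had a change of -0.17 (limma adjusted p = 0.0576), which did not pass. SMC1A (0.17, adjusted p = 0.0752), SMC3 (-0.04, adjusted p = 0.713) and STAG2 (-0.16, adjusted p = 0.0788) did not pass in the same limma fit either.

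**Figure D4:**
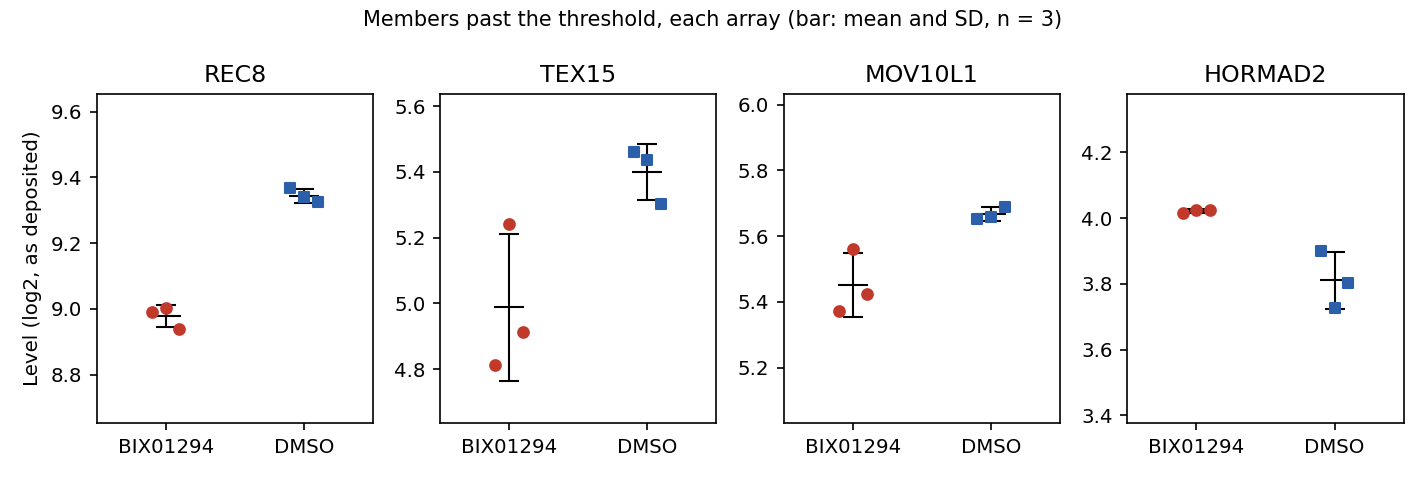
Log2 level of REC8, TEX15, MOV10L1 and HORMAD2 on each of the 3 BIX01294 arrays (circles) and 3 DMSO arrays (squares), with bars for the mean and SD (n = 3); each panel has its own axis of the same length and does not start at 0. BIX01294 arrays lie below the DMSO arrays for REC8, TEX15 and MOV10L1 and above them for HORMAD2, with REC8 near 9 and the other 3 between 3.7 and 5.7.

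Of the 5 germ cell factors, TEX15 fell and 4 did not pass. All 5 had changes below 0, as had 9505 of all 18404 genes and 2616 of the 4601 with a mean in the lower quartile. TEX15, which in mouse is needed for repair of meiotic breaks and for piRNA-guided silencing of transposons, read 4.81, 5.24 and 4.91 with BIX01294, against 5.46, 5.44 and 5.30 with DMSO. The second BIX01294 array lay close to the lowest DMSO array, without overlap, and all 6 arrays were below the lower quartile. The means were 4.99 ± 0.22 with BIX01294 and 5.40 ± 0.08 with DMSO (SD, n = 3 each), a log2 change of -0.41 (SE 0.11, limma adjusted p = 0.0271). The call was lost on leaving out BIX01294 array 1 (-0.32, limma adjusted p = 0.0774) or 3 (-0.37, 0.0983), or DMSO array 1 (-0.38, 0.0832) or 2 (-0.39, 0.0747). DPPA3, a maternal factor that protects DNA methylation in the early embryo, read 4.68, 4.76 and 4.74 with BIX01294, against 4.89, 4.84 and 4.98 with DMSO. These arrays did not overlap, but the change of -0.18 did not pass (limma adjusted p = 0.0621), and a second row for DPPA3 gave 0.07 (adjusted p = 0.827 in limma over all rows). With quantile normalization DPPA3 passed (limma adjusted p = 0.0448). DAZL, an RNA-binding protein of germ cells, changed by -0.13, DDX4, the VASA helicase, by -0.08, and TEX14, a protein of the bridges between germ cells, by -0.004. Their limma adjusted p-values were 0.436 to 0.975. DDX3X, a somatic relative of DDX4, rose by 0.25 (SE 0.068, limma adjusted p = 0.0296). That call was lost on leaving out BIX01294 array 2 or 3 or DMSO array 1 or 3, with adjusted p up to 0.0952, and with quantile normalization.

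Of the 7 genes of the synaptonemal complex and chromosome axis, HORMAD2 rose and 6 did not pass. HORMAD2, which marks chromosome axes that have not paired, read 4.02, 4.03 and 4.03 with BIX01294, against 3.90, 3.73 and 3.80 with DMSO. The BIX01294 arrays were nearly equal and all above the DMSO arrays, at a level below the lower quartile on every array. The log2 change was 0.21 (SE 0.060, limma adjusted p = 0.0368). The call was lost on leaving out any BIX01294 array (limma adjusted p = 0.0828, 0.0857 and 0.101) or DMSO array 2 or 3 (0.126 and 0.0764), with changes from 0.17 to 0.22, and also with an intensity trend in the fit. Its relative HORMAD1 changed by 0.01 (limma adjusted p = 0.96) and had the widest within-group SD of all members, 0.20.

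SYCP2, a core protein of the axial element, read 4.23, 4.01 and 3.99 with BIX01294, against 4.25, 4.35 and 4.24 with DMSO. The first BIX01294 array came close to the lowest DMSO array, and the change of -0.21 did not pass (limma adjusted p = 0.0888). Without that array the change was -0.28 (limma adjusted p = 0.024), and SYCP2 also passed with array weights. SYCP3, the partner of SYCP2, changed by -0.10, SYCP1, the transverse filament of the complex, by -0.01, and the central element proteins SYCE1 and SYCE2 by -0.08 and -0.03. Their limma adjusted p-values ran from 0.415 to 0.942.

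None of the 4 recombination genes passed in the limma fit, and none was under 0.05 before adjustment. SPO11, which makes the meiotic breaks, changed by 0.07, and DMC1, the meiotic recombinase, by 0.09. MEI1, needed for break formation in mouse, changed by -0.02. MSH4, a MutS protein of crossover sites, had the lowest mean of all members and read 2.78, 3.11 and 2.89 with BIX01294, against 3.34, 2.95 and 2.99 with DMSO. Its treatments overlapped, with a change of -0.17 (limma adjusted p = 0.376). The mismatch repair relative MSH6 rose by 0.46 (SE 0.088, limma adjusted p = 0.00719), and MSH3 changed by 0.13 (adjusted p = 0.244).

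Of the 13 piRNA pathway genes, MOV10L1 fell and 12 did not pass. MOV10L1, the RNA helicase that feeds precursors into piRNA production, read 5.37, 5.56 and 5.42 with BIX01294, against 5.65, 5.66 and 5.69 with DMSO. The DMSO arrays lay close together and above all BIX01294 arrays, all below the lower quartile. The log2 change was -0.21 (SE 0.063, limma adjusted p = 0.0421). The call was lost on leaving out BIX01294 array 1 or 3 (limma adjusted p = 0.126 and 0.125) or DMSO array 1, 2 or 3 (0.0962, 0.0978 and 0.0946), with changes from -0.17 to -0.22. It was also lost with an intensity trend in the fit and with each array centred on its median (-0.18, limma adjusted p = 0.0672). Its somatic relative MOV10 changed by -0.17 and did not pass (limma adjusted p = 0.075).

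TDRD1, a Tudor protein that binds PIWI proteins, was the only member above the upper quartile on every array. It read 10.11, 10.11 and 10.22 with BIX01294, against 10.11, 10.10 and 10.01 with DMSO. The treatments overlapped, with means of 10.15 ± 0.06 with BIX01294 and 10.07 ± 0.06 with DMSO (SD, n = 3 each) and a change of 0.07 (95% interval -0.07 to 0.21, limma adjusted p = 0.46). TDRKH, a Tudor protein of the mitochondrial surface that takes part in piRNA trimming, read 9.13, 9.05 and 9.12 with BIX01294, against 9.29, 9.10 and 9.17 with DMSO. It was above the median on every array, and its change of -0.09 did not pass (95% interval -0.23 to 0.06, limma adjusted p = 0.41).

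TDRD5, a Tudor protein needed in mouse for transposon silencing and sperm formation, had the largest upward change of the members. It read 4.50, 4.26 and 4.24 with BIX01294, against 4.12, 4.03 and 4.13 with DMSO. All BIX01294 arrays were above the DMSO arrays, the first by most, yet the change of 0.24 (SE 0.080) did not pass (limma adjusted p = 0.0648). With each array centred on its median it passed, at 0.27 (limma adjusted p = 0.0419). The PIWI proteins PIWIL1 (0.11, limma adjusted p = 0.168), PIWIL2 (-0.03, 0.765) and PIWIL4 (0.07, 0.524) did not pass.

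RNF17, a Tudor protein of spermatids in mouse, had the second lowest mean of all members. It read 3.24, 3.24 and 3.25 with BIX01294, against 3.34, 3.23 and 3.31 with DMSO, a change of -0.05 (limma adjusted p = 0.567). The treatments overlapped. MAEL, a piRNA factor, changed by -0.17, TDRD9, a helicase, by -0.08, and TDRD12, TDRD6 and ASZ1 by -0.03, 0.02 and 0.03, with limma adjusted p-values from 0.31 to 0.908. BRDT, the testis bromodomain reader of acetylated histones, changed by -0.04 (limma adjusted p = 0.798). Its somatic relative BRD3 fell by 0.20 (SE 0.051, limma adjusted p = 0.0254). Leaving out BIX01294 array 1 or 3 or any DMSO array lost that call, with adjusted p up to 0.079, as did centring. BRD2 changed by 0.06 (adjusted p = 0.481). The Argonaute AGO4, a somatic relative of the PIWI proteins, fell by 0.27 (SE 0.057, limma adjusted p = 0.0103). In all, 5 of 17 measured somatic relatives passed, 3 higher and 2 lower. That share of 29.4% lies between the 23.6% of all genes and the 37.3% of genes with a mean above the median, and 16 of the 17 lay above the median on every array.

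The repressors of germline genes moved in both directions. Of 25 measured, 6 rose and 5 fell with BIX01294 and 14 did not pass; 23 of the 25 lay above the median on every array. The share called was 44.0%, against 37.3% of all genes with a mean above the median. The targets of the compound did not pass: EHMT1 changed by 0.11 (limma adjusted p = 0.226) and EHMT2 averaged 8.47 ± 0.07 with BIX01294 and 8.47 ± 0.03 with DMSO (SD, n = 3 each, adjusted p = 0.998). The compound acts on the enzymes' activity, which these arrays do not measure.

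ATF7IP, the partner that stabilises SETDB1, read 10.75, 10.84 and 10.82 with BIX01294, against 11.40, 11.38 and 11.37 with DMSO. Its change was -0.58 (SE 0.052, limma adjusted p = 0.000258). SETDB1, a methyltransferase for histone H3 lysine 9, read 9.01, 8.94 and 8.90 with BIX01294, against 9.48, 9.52 and 9.39 with DMSO. Its change was -0.51 (SE 0.059, limma adjusted p = 0.000753). Both partners were lower on all BIX01294 arrays.

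E2F6, a repressor of the E2F family, read 9.25, 9.36 and 9.43 with BIX01294, against 8.87, 8.93 and 8.85 with DMSO. Its change was 0.46 (SE 0.063, limma adjusted p = 0.00155), and all BIX01294 arrays were higher. UHRF1, which guides maintenance DNA methylation, rose by 0.46 (SE 0.056, limma adjusted p = 0.0009). A second, dimmer row for UHRF1 gave -0.09 (adjusted p = 0.512), and the mean of its rows did not pass.

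The remaining called repressors were named after their values were seen. L3MBTL2 (0.35, limma adjusted p = 0.0187), PCGF6 (0.31, 0.0412) and MGA (0.20, 0.024) are further subunits of the E2F6 complex, and TFDP1 (0.28, 0.00601) is a dimer partner of E2F proteins; these 4 rose. Other listed subunits of that complex did not pass: MAX (0.10, limma adjusted p = 0.251), CBX3 (0.10, 0.294), YAF2 (0.001, 0.993), RYBP (-0.04, 0.671) and RING1 (-0.06, 0.645). HDAC1, a histone deacetylase (-0.37, limma adjusted p = 0.00371), DNMT3A, a DNA methyltransferase (-0.26, 0.00766), and KDM5C, a histone H3 lysine 4 demethylase (-0.23, 0.0164), fell. Leaving out BIX01294 array 3 or DMSO array 2 lost the call of KDM5C (limma adjusted p up to 0.0649). Leaving out any 1 array lost the call of MGA (adjusted p 0.05 to 0.071). Leaving out BIX01294 array 1 or DMSO array 1 or 3 lost that of L3MBTL2 (up to 0.0636), and leaving out any array but DMSO array 1, quantile normalization or array weights lost that of PCGF6 (up to 0.108). A second, dimmer row for PCGF6 gave 0.28 and did not pass (adjusted p = 0.0537 in limma over all rows). Without BIX01294 array 1 or without DMSO array 3, 3 repressors rose.

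**Figure D5:**
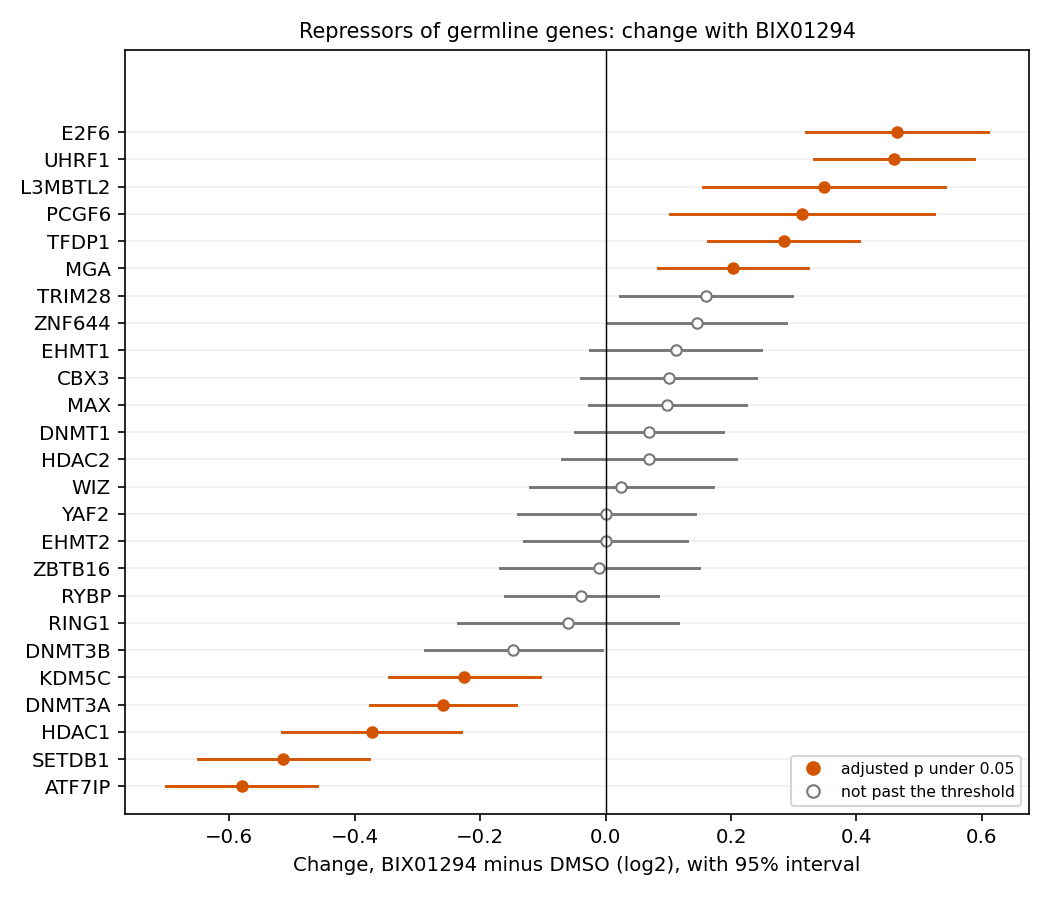
Log2 change, BIX01294 minus DMSO, with its 95% interval from limma for 25 repressors of germline genes, sorted by change; filled points have an adjusted p under 0.05. At the top 6 repressors lie right of 0, led by E2F6 and UHRF1, and at the bottom 5 lie left of 0, led by ATF7IP and SETDB1.

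Of 20 germ cell regulators, 1 rose and 1 fell, a share of 10.0% against 23.6% of all genes, and 10 of the 20 lay below the lower quartile on every array. MYBL1, the factor that switches on pachytene piRNA precursors and meiotic genes in mouse, read 7.02, 7.04 and 7.18 with BIX01294, against 6.57, 6.51 and 6.15 with DMSO. All arrays were below the median of all genes, the BIX01294 arrays were all higher, and the change was 0.67 (SE 0.11, limma adjusted p = 0.00348). TAF4B, a TFIID subunit of germ cells, fell by 0.28 (SE 0.063, limma adjusted p = 0.0129), and that call was lost on leaving out BIX01294 array 3 or DMSO array 1 (adjusted p up to 0.0542).

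Of 22 other meiosis genes, 4 rose and 0 fell in the limma fit. The share of 18.2% was near the 23.6% of all genes. TRIP13, the ATPase that strips HORMAD proteins from chromosome axes, rose by 0.48 (SE 0.053, limma adjusted p = 0.00059). PSMC3IP and MND1, which pair up to aid the DMC1 recombinase, rose by 0.34 (SE 0.057) and 0.29 (SE 0.076), with limma adjusted p = 0.00421 and 0.0281. EXO1, a nuclease of recombination and mismatch repair, rose by 0.19 (SE 0.056, limma adjusted p = 0.0423). The calls of MND1 and EXO1 were lost on leaving out BIX01294 array 1 or 3 or DMSO array 1 or 3, and that of EXO1 also on leaving out BIX01294 array 2 or with quantile normalization (adjusted p up to 0.102 and 0.132). All 4 lay above the median on every array, and TRIP13, in the mitotic checkpoint, and EXO1, in mismatch repair, also serve dividing somatic cells.

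Of 14 other piRNA pathway genes, 3 rose and 0 fell in the same fit, a share of 21.4% against 23.6% of all genes. PLD6, a phospholipase of the mitochondrial surface, rose by 0.42 (SE 0.070, limma adjusted p = 0.00391). NOCT, a phosphatase of NADP(H), rose by 0.38 (SE 0.062, adjusted p = 0.00358), and DDX39A, an mRNA export helicase, by 0.30 (SE 0.067, adjusted p = 0.0137), in the same limma fit. All 3 have roles outside the germline and lay above the median on every array.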

How the data were processed

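RNA of 3 BIX01294 and 3 DMSO samples of BE(2)-C cells was measured on Affymetrix gene arrays. The deposited log2 expression values, between 1.93 and 14.93, were used as the authors made them; the submitters' processing notes name Partek, while no source used here states the background correction or normalization. Of 32321 rows, 19158 had 1 gene symbol, 1388 several and 11775 none in the platform annotation; 19128 of the single-symbol rows matched RefSeq by gene ID. Rows with 1 symbol were kept, the row with the highest mean per gene (637 genes had several), giving 18404 genes with no filter on dim ones.

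Changes are BIX01294 minus DMSO from limma 3.58.1 in R 4.3.3 (lmFit and eBayes, two-sided), with Benjamini-Hochberg adjustment over all 18404 genes and a threshold of 0.05. The script was tested on simulated data. The number of arrays, 3 in each treatment, limits the precision. Alternatives were quantile normalization, median centring, 2 filters on dim genes, other ways to join rows, an intensity trend, array weights, a replicate block, a minimum change and leaving out each array.

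The members and the other lists were chosen with earlier results of these data known. Values by array are given for members past the threshold, the 3 highest, the 2 lowest and the 3 largest changes that did not pass; of other lists, up to 4 called genes are named, and further names are marked as such. Somatic relatives of members were named beside them. Promoters come from RefSeq (GRCh38.p14). Listed genes with no row of their own were not analysed here.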

Additional observations from a re-analysis of the deposited data

Results flagged for a closer look

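Rows that name several genes were left out of the comparison and were looked at on their own. Of 1388 such rows, 243 passed limma's adjusted 0.05, 103 higher and 140 lower with BIX01294. Of these rows, 1 named a germline member, and it passed, lower with BIX01294 (log2 change -0.22, limma adjusted p = 0.0145). Of 23 rows naming a cancer-testis gene, 1 passed, higher with BIX01294 (0.34, limma adjusted p = 0.0107). Both signals stand in rows that the counts above do not use, and the genes they come from cannot be told apart.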

How the results depend on the processing

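The direction of the change held for each of 68 genes wherever it had been called: of 1025 gene values under 16 other settings, 909 stayed on their side of the threshold, 95 lost a call, 21 gained one and 0 reversed. The 4 called members (1 higher, 3 lower) became 1 (0 higher, 1 lower) with only genes above the lower quartile or above the median, where 3 members were left to test. They became 2 (0 higher) with an intensity trend and 0 (0 higher, 0 lower) against a minimum log2 change of 0.5. With quantile normalization or array weights they became 5 (1 higher, 4 lower). Median centring called 2 members as higher. Leaving out 1 array left 1 to 3 members, 0 to 1 higher and 1 to 3 lower; the member median then ran from -0.07 to -0.01. REC8 was called in 15 of 16 settings, TEX15 in 9 of 14, HORMAD2 in 6 of 14 and MOV10L1 in 5 of 14. The 11 repressors (6 higher, 5 lower) became 0 (0 higher, 0 lower) against the minimum change, and leaving out 1 array left 3 to 4 higher. The 15 genes called in the other germline lists and somatic relatives became 24 with the trend, 23 with array weights and 0 against the minimum change, and all called genes went to 145 (64 higher, 81 lower) against 4349 (2379 higher, 1970 lower). The cause of these shifts was not tested, apart from the fewer genes or arrays that some settings hold. Same-numbered arrays showed no steady shared variation (correlations of deviations 0.19, -0.18 and 0.05), while differently numbered arrays gave -0.32 to 0.29. Deviations from means of 3 arrays cannot exclude a paired design. With the replicate number as a block 2 members passed, 0 of them higher. Dim signals with no detection calls limit what 30 of the 33 members can show.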

Other observations

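Of 17 measured cancer-testis antigens, genes normally confined to testis and found in some tumours, 1 rose and 0 fell with BIX01294 in the limma fit. The share of 5.88% was below the 23.6% of all genes and near the 4.80% of genes with a mean in the lower quartile. Of the 17, 10 lay below the lower quartile on every array, while the called gene, SSX1, lay above it on every array. SSX1, a transcriptional repressor of that class, read 7.64, 7.41 and 7.48 with BIX01294, against 6.91, 6.78 and 7.08 with DMSO (log2 change 0.59, SE 0.091, limma adjusted p = 0.00276), and all BIX01294 arrays were higher. SSX1 belongs to a family of near-identical genes on the X chromosome, so its signal may hold that of relatives. The other 16 did not pass, among them MAGEA4 (0.32, limma adjusted p = 0.114) and PRAME (-0.08, 0.449), which were chosen for mention after their values were seen. Of the mesenchymal or Schwann-like markers, VIM rose by 0.82 (SE 0.064, limma adjusted p = 0.000132), CD44 by 0.49 (0.000696) and S100B by 0.42 (0.0177), and TWIST1, a transcription factor, fell by 0.26 (0.0133). COL1A1 (-0.004), COL1A2 (-0.03), SOX10 (0.01), FN1 (0.01) and PRRX1 (0.06) did not pass.

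The 33 members lie on 15 chromosomes, with 7 on chromosome 1, 5 on chromosome 22 and 0 on the X chromosome. The 5 on chromosome 22 (HORMAD2, SMC1B, DMC1, MEI1 and MOV10L1) include 2 of the 4 called members, HORMAD2 and MOV10L1, which went in opposite directions. These calls held in only 6 and 5 of 14 settings. Of all genes 23.6% were called, and of lower-quartile genes 4.80%. The share called on chromosome 22 was not counted.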
